A study of Homo sapiens with 30 samples.

Results

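The genes described here are 10 transcripts that are widely read as the output of extracellular signal-regulated kinase (ERK), chosen by name: the phosphatase genes DUSP4, DUSP5 and DUSP6, the inhibitor genes SPRY2, SPRY4, SPRED1 and SPRED2, the transcription factor genes ETV4 and ETV5, and PHLDA1. All 10 were found in the raw count table by their symbols, among 60107 genes. The cells were HepG2, a line established from a human liver cancer, and every library came from cells that had been transfected with an oligonucleotide and given Sorafenib at 10 µM or its solvent dimethyl sulfoxide (DMSO) 24 h later. For 6 h of treatment the cells carried an inhibitor control (IC) or an inhibitor of miR-200c-3p (I200c), and for 24 h a mimic control (MC), the miR-222-5p mimic (M222) or that of miR-512-3p (M512). These 5 transfections with each treatment made 10 groups of 3 replicates, which the submitters describe as biological, and 30 libraries in all. HepG2 is 1 line, no library came from untransfected cells, and the treatment time and the class of oligonucleotide (inhibitor or mimic) changed together, so that their effects cannot be told apart.

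ERK is the last kinase of a cascade that runs from receptor tyrosine kinases through RAS, RAF and MEK. Sorafenib is a multikinase inhibitor of advanced hepatocellular carcinoma, whose targets include RAF kinases and several receptors. Active ERK turns on the transcription of genes that act back on it. DUSP4 and DUSP5 encode phosphatases that remove phosphate from MAP kinases in the nucleus, and DUSP6 encodes one that does so for ERK in the cytoplasm. The Sprouty proteins (SPRY2, SPRY4) and the Sprouty-related SPRED proteins (SPRED1, SPRED2) restrain the step from receptor and RAS to RAF, while ETV4 and ETV5 are ETS-family transcription factors that carry the signal on to further genes. PHLDA1 encodes a pleckstrin-homology-like protein that is induced by growth factor signalling.

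Libraries were made with QuantSeq 3′ FWD, which reads 1 fragment near the 3′ end of a transcript, so that counts do not grow with transcript length. Library totals ran from 3938760 to 9657060 counts. Levels are given as CPM (a library's counts scaled to the same total, with TMM factors for composition), and where a gene had no count its level could still reach 0.311 to 0.762 CPM, depending on the library, with 3 counts as the limit and for counting error only. Between 17.5% and 26.8% of counts were mitochondrial, and log-scaled levels of replicates correlated across genes at 0.950 to 0.982. The 9 hepatocyte genes checked were seen in all 30 libraries, with ALB at 2353 to 5135 CPM and AFP at 679 to 3207 CPM. Of 9 genes of other liver cells, VWF, COL1A2 and CD3E were at 0 throughout. PTPRC was at 0 in 29 libraries, LYVE1 in 20, PECAM1 in 13 and COL1A1 in 4, with highest levels of 0.142, 1.49, 3.05 and 11.7 CPM. CD68 (0.448 to 11.1 CPM) and ACTA2 (27.0 to 112 CPM) were seen in all libraries. Summed, these 9 genes lay at 51.0 to 108 CPM in the DMSO groups of 6 h and 52.6 to 68.5 in the Sorafenib groups. Their part in the results was not tested.

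Over the 30 libraries, PHLDA1 was the most abundant of the 10 genes, with a mean level of 159 CPM and a range of 92.5 to 239. ETV5 followed at 81.7 CPM, ETV4 at 65.1 and DUSP6 at 43.2, and then SPRED2 at 22.5 and SPRED1 at 15.9. SPRY2 (5.48 CPM), SPRY4 (5.17), DUSP5 (2.65) and DUSP4 (1.31) were read from few counts, with medians of 22.5, 26, 13.5 and 6 per library. DUSP4 had no count in 3 libraries and DUSP5 in 1. Of neighbours in this order, SPRED1 was above SPRY2 in 30 of 30 libraries and PHLDA1 above ETV5 in 28, but SPRY2 was above SPRY4 in only 13, so that these last 2 could not be ranked. PHLDA1 made up 39.6% of the summed level of the 10 genes. The strand handling of the counting is not given in the sources used here, so reads of SPRY4 and of its antisense gene SPRY4-AS1 (85 counts in all against 1009) cannot be told apart.

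**Figure D1:**
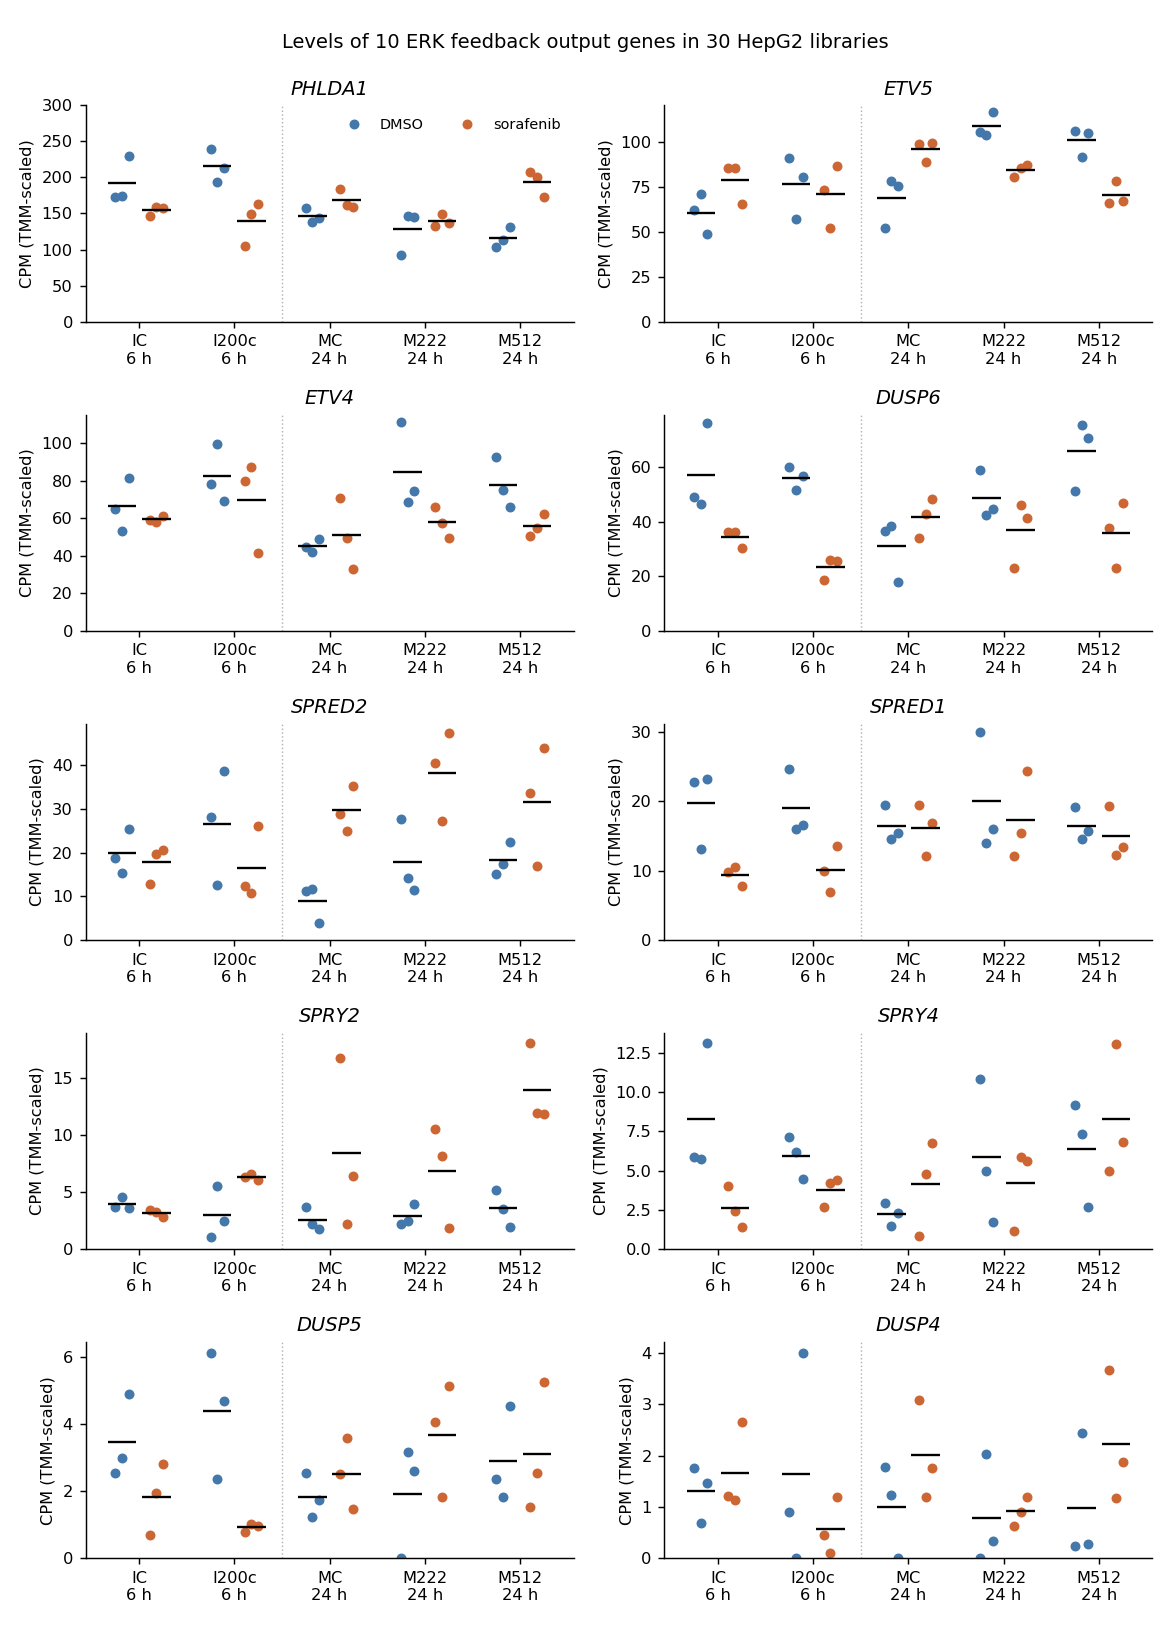
Level of each of the 10 genes (TMM-scaled CPM, linear axis from 0) in the 5 transfections, with DMSO in blue and Sorafenib in orange. Each point is 1 library and each black line the mean of 3, and in the DUSP6 panel all Sorafenib libraries of IC and I200c (6 h, left of the dotted line) lie below all DMSO libraries.

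To see what Sorafenib did to these transcripts early, its effect at 6 h was averaged over IC and I200c (6 libraries with Sorafenib against 6 with DMSO). The libraries give RNA levels, and the activity of ERK itself was not measured in them. DUSP6, SPRED1 and PHLDA1 were down-regulated, DUSP6 and SPRED1 about 2-fold each, and no member was up-regulated. A gene was called when its adjusted p, from edgeR's quasi-likelihood F test with Benjamini-Hochberg adjustment over all genes tested, was under 0.05. With that rule 3 of the 10 members were called, beside 2.89% of all 12738 genes (368 genes), and all 3 were lower, beside 1.73% of all genes called lower. The log2 fold change was below 0 for 8 of 10 members, with a median of -0.53 for the members and of 0.01 for all genes tested. All 10 members passed the filter on low counts. Since whole cultures were read, a fall in the number of cells that express a gene and a fall in the level per cell cannot be told apart.

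DUSP6 (chr12:89347235-89352501, minus strand, GRCh38) had the smallest adjusted p among the members at 6 h. Its level was 49.1, 46.6 and 76.5 CPM in IC_DMSO and 36.2, 36.4 and 30.4 in IC_sorafenib. In I200c_DMSO it was 60.2, 51.7 and 56.9 CPM, and in I200c_sorafenib 18.8, 26.0 and 25.6. The groups did not overlap: the highest Sorafenib library (36.4) lay under the lowest DMSO library (46.6). The mean level went from 56.8 ± 10.8 to 28.9 ± 6.81 CPM (SD, n = 6), a log2 fold change of -1.01 (SE 0.145, edgeR adjusted p = 0.000317, 95% interval -1.31 to -0.70). Leaving out any 1 of the 12 libraries gave values of -1.07 to -0.87, all of them called.

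SPRED1 (chr15:38252836-38357249, plus strand) fell by a similar factor from a lower level. It read 22.8, 13.1 and 23.1 CPM in IC_DMSO against 9.74, 10.6 and 7.84 in IC_sorafenib, and 24.6, 16.0 and 16.6 in I200c_DMSO against 9.89, 6.87 and 13.5 in I200c_sorafenib. Each Sorafenib library was below each DMSO library of the same transfection, but over both transfections the ranges overlapped, since the lowest DMSO library stood at 13.1 and the highest Sorafenib library at 13.5. The log2 fold change was -0.997 (SE 0.213, edgeR adjusted p = 0.0115), and it was called whichever library was left out.

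PHLDA1 (chr12:76025447-76031776, minus strand) fell less. Its level was 173, 174 and 230 CPM in IC_DMSO, 146, 160 and 158 in IC_sorafenib, 239, 194 and 213 in I200c_DMSO and 104, 149 and 164 in I200c_sorafenib. No Sorafenib library reached the lowest DMSO library. The log2 fold change was -0.48 (SE 0.120, edgeR adjusted p = 0.0314), or 1.39-fold lower. This call was fragile: it was lost, at adjusted p of 0.0505 to 0.122, without IC_DMSO replicate 3, without any 1 of the 3 IC_sorafenib libraries, or without I200c_DMSO replicate 1 or 3 or I200c_sorafenib replicate 1 or 2, while the fold change stayed between -0.54 and -0.39 (adjusted p 0.00424 to 0.122 over all alternatives).

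The sequence upstream of these 3 genes is shown because they fell together at 6 h. For 6 of the 10 members RefSeq gave a promoter on GRCh38.p14, and the 250 bases before the gene start were searched on both strands for CCGGAA (an ETS core), TGANTCA (the AP-1 site) and TGACG (part of the cyclic AMP response element), with matches in capitals. No matches overlapped each other. Of 35116 promoter windows of the same length, 14.5% held CCGGAA, 6.57% the AP-1 site and 21.2% TGACG. Among the 3 windows, PHLDA1 held 1 CCGGAA, read as TTCCGG and starting 89 bases before the gene, and DUSP6 and SPRED1 held none of the 3 motifs.
DUSP6 promoter, chr12:89352502-89352751, minus strand: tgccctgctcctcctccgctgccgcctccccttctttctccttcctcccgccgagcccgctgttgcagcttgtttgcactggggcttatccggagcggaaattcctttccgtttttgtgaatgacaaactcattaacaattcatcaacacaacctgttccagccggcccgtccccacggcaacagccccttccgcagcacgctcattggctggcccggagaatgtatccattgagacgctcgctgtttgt
SPRED1 promoter, chr15:38252586-38252835, plus strand: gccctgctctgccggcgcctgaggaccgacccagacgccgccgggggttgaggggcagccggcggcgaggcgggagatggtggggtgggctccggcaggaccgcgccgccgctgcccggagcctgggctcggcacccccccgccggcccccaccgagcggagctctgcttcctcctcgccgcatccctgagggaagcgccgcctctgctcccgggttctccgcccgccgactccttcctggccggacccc
PHLDA1 promoter, chr12:76031777-76032026, minus strand: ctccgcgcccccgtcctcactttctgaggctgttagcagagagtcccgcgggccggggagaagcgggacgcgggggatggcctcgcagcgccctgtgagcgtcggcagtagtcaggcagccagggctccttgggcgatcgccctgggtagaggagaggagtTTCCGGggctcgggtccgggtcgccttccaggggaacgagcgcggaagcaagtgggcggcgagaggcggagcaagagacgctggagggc

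These windows differ in composition, with a GC share of 57.2% for DUSP6, 78.4% for SPRED1 and 70.4% for PHLDA1. A match is a run of letters and not a binding site, and its absence says only that these letters are not in the window.

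SPRY4 and DUSP5 had lower means with Sorafenib at 6 h as well, but neither was called. SPRY4, a Sprouty inhibitor gene (chr5:142310427-142326455, minus strand), read 5.89, 5.74 and 13.2 CPM in IC_DMSO, 4.0, 2.43 and 1.40 in IC_sorafenib, 7.16, 6.19 and 4.45 in I200c_DMSO and 2.70, 4.20 and 4.39 in I200c_sorafenib. All Sorafenib libraries were below all DMSO libraries by a narrow margin, 4.39 against 4.45. With DUSP6 and PHLDA1 it was thus 1 of 3 members without overlap at 6 h, beside 1.34% of all genes. Its log2 fold change of -1.16 (SE 0.331) had an edgeR adjusted p of 0.0678, which became 0.0364 with DESeq2 and 0.0358 with no filter on low counts (0.0358 to 0.277 over all alternatives).

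DUSP5 (chr10:110497907-110511533, plus strand) had the largest fold change among the members and also few counts, 4 to 42 per library at 6 h. It read 2.55, 2.99 and 4.87 CPM in IC_DMSO and 0.696, 1.95 and 2.80 in IC_sorafenib, which overlap. In I200c_DMSO it read 6.12, 2.35 and 4.67 CPM and in I200c_sorafenib 0.787, 1.03 and 0.949, which do not. The log2 fold change over both was -1.57 (SE 0.456, edgeR adjusted p = 0.0733). It was called with DESeq2 (adjusted p = 0.0259) and without I200c_DMSO replicate 2 (0.0341), over a range of 0.0259 to 0.237.

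The other 5 members did not pass the test at 6 h. SPRED2 had a log2 fold change of -0.43 (SE 0.261, 95% interval -0.97 to 0.11), ETV4 of -0.21 (SE 0.159, -0.54 to 0.12) and ETV5 of 0.13 (SE 0.149, -0.18 to 0.44). SPRY2 had 0.35 (SE 0.355, -0.39 to 1.09). For these 4 the intervals leave out a 2-fold fall, which would be -1 on this scale, and that of DUSP4 (-0.58, SE 0.759, -2.17 to 1.00) does not. DUSP4 turned to 0.38 without I200c_DMSO replicate 3, the only library at 6 h in which it exceeded 3 CPM (4.01).

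**Figure D2:**
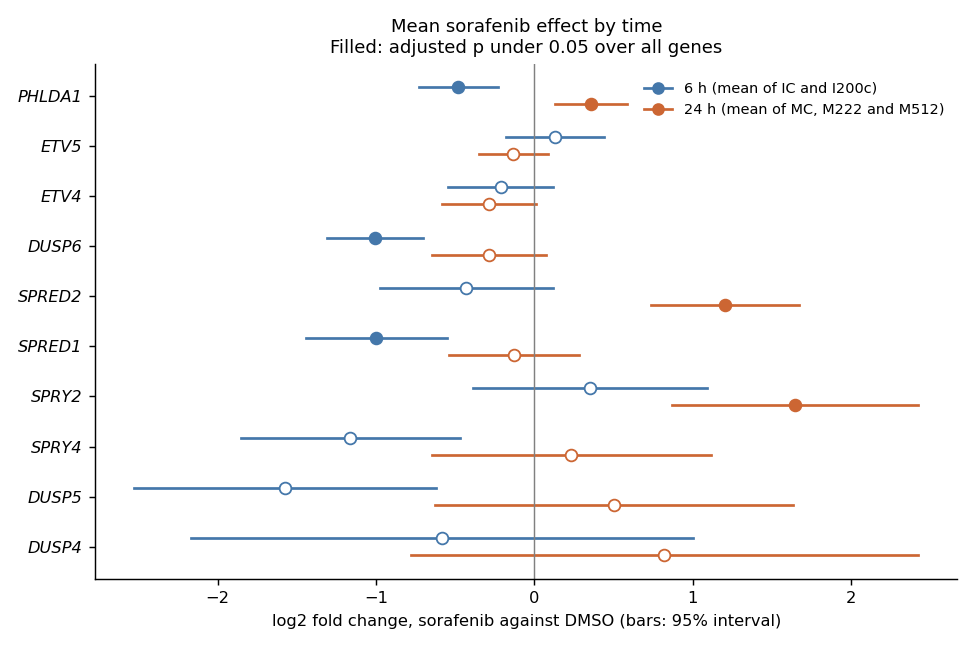
Log2 fold change of each gene with Sorafenib against DMSO, averaged over transfections, at 6 h (blue) and 24 h (orange), with 95% intervals from the edgeR fit. Filled points had an adjusted p under 0.05 over all genes: DUSP6, SPRED1 and PHLDA1 below 0 at 6 h, and SPRY2, SPRED2 and PHLDA1 above 0 at 24 h.

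At 24 h the same question was asked over MC, M222 and M512 (9 libraries with Sorafenib against 9 with DMSO). SPRY2 was up-regulated 3.13-fold, SPRED2 2.31-fold and PHLDA1 1.28-fold, and no member was down-regulated. These 3 of 10 members stand beside 25.8% of all 13244 genes (3417 genes), with 13.4% of all genes called higher, so that the share of members called was near that of all genes and is no result about the members. The median log2 fold change was 0.30 for the members, of which 6 were above 0, and -0.04 for all genes. Both marker lists moved with the treatment at this time. The 9 hepatocyte genes summed to 12393 to 14076 CPM in MC_DMSO against 8836 to 10964 in MC_sorafenib, 11035 to 13562 against 7181 to 10078 with M222 and 16153 to 17200 against 9101 to 11028 with M512, and the 9 genes of other liver cells to 86.5 to 119 against 59.3 to 75.2, 70.9 to 87.1 against 49.6 to 57.9, and 52.0 to 59.1 against 29.1 to 44.9. Their part in the changes of the members was not tested. Scaling by total counts in place of TMM moved the median of all genes to -0.17 and the share of higher genes among those called from 52.1% to 32.8%. Relative to the median of all genes, SPRY2, SPRED2 and PHLDA1 stood at 1.68, 1.24 and 0.40 with TMM and at 1.67, 1.25 and 0.40 with total counts.

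SPRY2 (chr13:80335976-80341126, minus strand), a Sprouty inhibitor gene, varied widely between replicates. It read 3.69, 2.21 and 1.74 CPM in MC_DMSO against 16.8, 2.19 and 6.46 in MC_sorafenib, and 2.24, 2.48 and 3.99 in M222_DMSO against 10.5, 8.17 and 1.88 in M222_sorafenib. In M512_DMSO it read 5.23, 3.50 and 1.98 CPM against 18.1, 11.9 and 11.8 in M512_sorafenib. With M512 the groups were far apart, whereas MC_sorafenib replicate 2 and M222_sorafenib replicate 3 stayed at the level of DMSO. The log2 fold change was 1.65 (SE 0.378, edgeR adjusted p = 0.00225), and it ranged from 1.35 to 1.82 when 1 library was left out, called each time.

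SPRED2 (chr2:65310851-65432637, minus strand), which restrains RAS to RAF signalling, read 11.3, 11.8 and 3.91 CPM in MC_DMSO and 28.9, 24.9 and 35.4 in MC_sorafenib. With M222 it read 27.8, 14.2 and 11.4 CPM in DMSO and 40.5, 27.2 and 47.4 in Sorafenib, and with M512 15.1, 17.4 and 22.4 in DMSO and 33.7, 17.0 and 44.1 in Sorafenib. The groups were apart for MC and overlapped by 1 library each for M222 and M512. The mean rose from 15.0 ± 6.93 to 33.2 ± 9.76 CPM (SD, n = 9), a log2 fold change of 1.21 (SE 0.227, edgeR adjusted p = 0.000346) that was called whichever library was left out.

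PHLDA1, which had fallen at 6 h, was higher at 24 h. It read 157, 138 and 144 CPM in MC_DMSO and 184, 162 and 159 in MC_sorafenib, 92.5, 146 and 145 in M222_DMSO and 133, 150 and 136 in M222_sorafenib, and 104, 113 and 131 in M512_DMSO and 208, 201 and 173 in M512_sorafenib. The gap was widest with M512, and the groups of M222 overlapped. The log2 fold change of 0.36 (SE 0.109) had an edgeR adjusted p of 0.0172, which became 0.110 when total counts replaced TMM (0.00728 to 0.110 over all alternatives).

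The windows before SPRY2 and SPRED2 are shown as the other upstream sequences whose genes changed, with the same 3 motifs in capitals. SPRY2 held 1 CCGGAA, starting 142 bases before the gene, and 1 TGACG, starting at 190 bases, and SPRED2 held none of the 3 motifs. The RefSeq start used for SPRED2 lies inside the GENCODE gene.
SPRY2 promoter, chr13:80341127-80341376, minus strand: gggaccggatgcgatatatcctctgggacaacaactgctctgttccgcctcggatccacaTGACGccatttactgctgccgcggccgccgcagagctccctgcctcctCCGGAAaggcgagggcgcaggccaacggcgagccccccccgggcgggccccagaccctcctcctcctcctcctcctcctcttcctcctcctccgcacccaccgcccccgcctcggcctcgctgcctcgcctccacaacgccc
SPRED2 promoter, chr2:65432600-65432849, minus strand: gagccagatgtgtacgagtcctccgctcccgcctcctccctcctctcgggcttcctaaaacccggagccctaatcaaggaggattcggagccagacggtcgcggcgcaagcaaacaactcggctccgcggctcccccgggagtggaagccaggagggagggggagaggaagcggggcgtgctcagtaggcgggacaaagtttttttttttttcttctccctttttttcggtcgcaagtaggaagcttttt

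The other 7 members were not called at 24 h. DUSP6, which had fallen at 6 h, had a log2 fold change of -0.28 (SE 0.175, 95% interval -0.65 to 0.08), with Sorafenib libraries between 23.1 and 48.5 CPM (median 41.6) and DMSO libraries between 17.9 and 75.7 (median 44.8). SPRED1 had -0.13 (SE 0.198, -0.54 to 0.28), between 12.05 and 24.3 CPM with Sorafenib and 14.0 and 29.96 with DMSO. It turned to 0.01 without M222_DMSO replicate 1, its highest library at 24 h. ETV4 had -0.29 (SE 0.143, -0.58 to 0.01) and was called only with total counts (-0.43, edgeR adjusted p = 0.0329, with 0.0329 to 0.376 over all alternatives), and ETV5 had -0.13 (SE 0.106, -0.35 to 0.09). SPRY4 (0.23, SE 0.427), DUSP5 (0.50, SE 0.548) and DUSP4 (0.82, SE 0.776) had intervals that held both a 2-fold rise and no change. No member had all Sorafenib libraries above all DMSO libraries at 24 h, beside 2.28% of all genes.

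Within single transfections the fits had 3 libraries a side and called few members. In IC no member was called by edgeR, beside 0.0393% of all genes (5 genes). At an unadjusted p under 0.05 there were 3 members, all lower (DUSP6, SPRY4 and SPRED1), beside 3.78% of all genes, and DESeq2 called 0. In I200c DUSP6 was down-regulated (log2 fold change -1.27, SE 0.204, edgeR adjusted p = 0.00144), beside 2.28% of all genes. Of 5 members with an unadjusted p under 0.05 there, 4 were lower and 1 higher, beside 15.3% of all genes. DESeq2 also called PHLDA1 (adjusted p = 0.0120) and DUSP5 (0.0265), both lower. Without I200c_DMSO replicate 2, DUSP5 and PHLDA1 were called lower as well, while SPRY2 was called higher. PHLDA1 also joined DUSP6 without I200c_sorafenib replicate 3.

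In MC, SPRED2 was up-regulated (log2 fold change 1.74, SE 0.405, edgeR adjusted p = 0.0191), beside 2.6% of all genes. This call was lost without MC_DMSO replicate 3 (1.36, adjusted p = 0.159), MC_sorafenib replicate 1 (1.77, 0.0531) or MC_sorafenib replicate 3 (1.61, 0.110). In M222 no member was called by edgeR or DESeq2, beside 4.38% of all genes, and 2 had an unadjusted p under 0.05 (SPRED2 at 1.08 and ETV4 at -0.56), a share near the 19.1% of all genes. Without M222_DMSO replicate 1, or with no filter on low counts, SPRED2 was called there. In M512 PHLDA1 was up-regulated (0.75, SE 0.189, edgeR adjusted p = 0.0124). This share is near the 9.96% of all genes called and is no result about the members. At an unadjusted p under 0.05 there were 4 members, 2 higher and 2 lower, beside 24.2% of all genes. The call of PHLDA1 was lost without M512_DMSO replicate 1 (0.67, adjusted p = 0.0684). With DESeq2, M512 also gave SPRY2 (1.97, adjusted p = 0.0291) and ETV5 (-0.51, adjusted p = 0.0446). With total counts edgeR also called DUSP6 and ETV5, both lower, and without M512_sorafenib replicate 3 it called DUSP6, again lower.

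**Figure D3:**
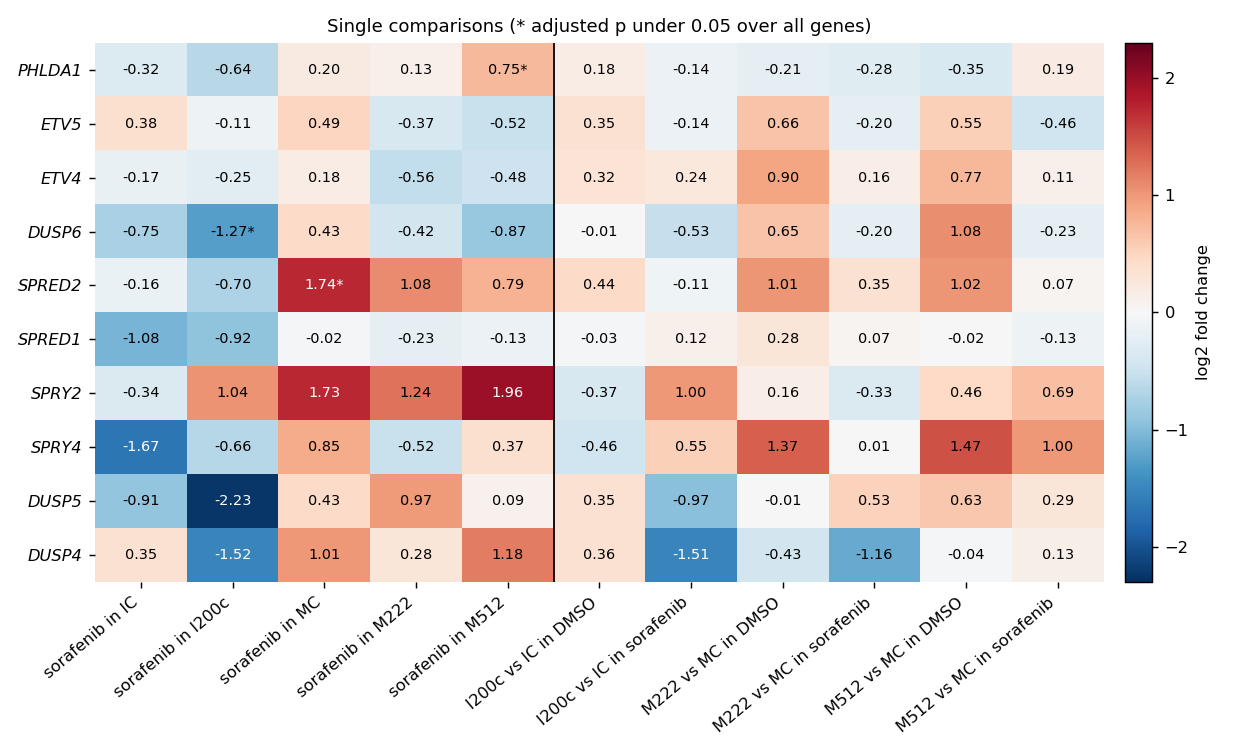
Log2 fold change of the 10 genes (rows, by falling mean level) in 11 single comparisons, with Sorafenib against DMSO in each transfection left of the line and each oligonucleotide against its control right of it. Asterisks mark an adjusted p under 0.05 over all genes: DUSP6 in I200c (-1.27), SPRED2 in MC (1.74) and PHLDA1 in M512 (0.75), with none right of the line.

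The early and the late effect of Sorafenib were then compared in 1 fit over all 30 libraries. SPRED2 and PHLDA1 had a higher log2 fold change at 24 h than at 6 h, by 1.64 (SE 0.372, edgeR adjusted p = 0.00361) and 0.84 (SE 0.163, adjusted p = 0.000757). These 2 of 10 members stand beside 9.4% of all 13800 genes (1297 genes). With these 2, 7 members had an unadjusted p under 0.05, beside 23.2% of all genes, and all 7 had a higher value at 24 h. The other 5 were DUSP5 by 2.09 (SE 0.753, edgeR adjusted p = 0.0740), SPRY4 by 1.40 (SE 0.604, 0.148), SPRY2 by 1.29 (SE 0.548, 0.139), SPRED1 by 0.87 (SE 0.302, 0.0636) and DUSP6 by 0.73 (SE 0.249, 0.0599). ETV4 (-0.07, SE 0.226) and ETV5 (-0.26, SE 0.180) were the members with a value below 0. When IC alone was set against MC, no member was called by edgeR, 6 had an unadjusted p under 0.05, and the difference was 1.88 for SPRED2 (adjusted p = 0.108) and 0.50 for PHLDA1 (adjusted p = 0.309). DUSP6 and SPRED1 were called as well without M222_DMSO replicate 1 or without M512_sorafenib replicate 2.

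The DMSO libraries also differed between the 2 times, in cells that carried mimics or inhibitors. PHLDA1 was lower at 24 h (log2 fold change -0.65, SE 0.114, edgeR adjusted p = 0.000473), from 204 ± 28.1 CPM (SD, n = 6) to 130 ± 22.0 (SD, n = 9). ETV5 was higher, from 68.6 ± 15.6 to 92.9 ± 20.6 CPM (0.42, SE 0.129, edgeR adjusted p = 0.0490). They are 2 of 10 members, beside 5.01% of all genes (691 genes). The log2 fold change was below 0 for 9 of 10 members, with a median of -0.47 for the members and of -0.01 for all genes tested. SPRED2 had -0.68 (SE 0.262, edgeR adjusted p = 0.135). The effects compared above are set against DMSO at each time, so these shifts in DMSO enter their differences. The call of ETV5 held in only 4 of 15 fits with 1 library left out, being lost without IC_DMSO replicate 1 or 3, I200c_DMSO replicate 2 or 3, MC_DMSO replicate 2 or 3, M222_DMSO replicate 1 or 3, or any 1 of the M512_DMSO libraries (adjusted p 0.0535 to 0.186, and 0.0177 to 0.642 over all alternatives). Between IC_DMSO and MC_DMSO alone neither gene was called, with 0.21 for ETV5 (adjusted p = 0.642) and -0.36 for PHLDA1 (0.248). The Sorafenib libraries of PHLDA1 overlapped between the times, with 133 to 208 CPM at 24 h and 104 to 164 at 6 h.

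To see whether the oligonucleotides moved the levels of the members, each oligonucleotide was set against its own control. The mature sequences they block or imitate are given with the seed (bases 2 to 8) in capitals, from RefSeq on GRCh38.p14. The genes lie at chr12:6963742-6963764 (plus strand) for miR-200c-3p and chrX:45747073-45747094 (minus strand) for miR-222-5p. The same miR-512-3p comes from chr19:53666729-53666750 and chr19:53669213-53669234 (plus strand). The 3 seeds differ.
hsa-miR-200c-3p: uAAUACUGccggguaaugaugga
hsa-miR-222-5p: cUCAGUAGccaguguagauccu
hsa-miR-512-3p: aAGUGCUGucauagcugagguc

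A match to the 7-base complement of the seed was looked for in the 3′ untranslated region of each member's canonical GENCODE 44 transcript. For miR-200c-3p (CAGTATT) 3 members had it, among 16.1% of all 19550 such regions, for miR-222-5p (CTACTGA) 2 members (9.21%) and for miR-512-3p (CAGCACT) 1 member (19.6%), with regions of all lengths counted. PHLDA1, with a region of 4672 bases, had 2 matches to miR-200c-3p and 1 to miR-222-5p, ETV5 and DUSP4 had 1 each to miR-200c-3p, SPRED1 1 to miR-222-5p and SPRY4 1 to miR-512-3p. These sites, other than that of DUSP4, are shown with 8 bases on each side, as the places where an oligonucleotide could bear on a member.
PHLDA1, miR-200c-3p, base 1509: gtcttggtCAGTATTtttccagc
PHLDA1, miR-200c-3p, base 1541: gaaacggtCAGTATTagaccact
PHLDA1, miR-222-5p, base 137: acatcaccCTACTGAaaacttgc
ETV5, miR-200c-3p, base 726: acttttgaCAGTATTttgttttg
SPRED1, miR-222-5p, base 5077: acccaggaCTACTGAttttttta
SPRY4, miR-512-3p, base 2716: gagggaccCAGCACTcagagaca

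No member with such a site differed by the test between the oligonucleotide and its control. With I200c against IC in DMSO, PHLDA1 had a log2 fold change of 0.18 (95% interval -0.18 to 0.53), ETV5 of 0.35 (-0.09 to 0.79) and DUSP4 of 0.36 (-1.87 to 2.58). With M222 against MC in DMSO, PHLDA1 had -0.21 (-0.60 to 0.18) and SPRED1 0.28 (-0.42 to 0.99), and with M512 against MC in DMSO, SPRY4 had 1.47 (-0.10 to 3.04). The intervals of PHLDA1 left out a 2-fold change in either direction, and those of SPRY4 and DUSP4 did not.

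Over all 10 members, edgeR called none in any comparison of an oligonucleotide with its control. For I200c against IC in DMSO, 0 members had an unadjusted p under 0.05 and DESeq2 called 0, beside 0.0157% of all genes called by edgeR (2 genes). In Sorafenib 1 member, DUSP6 (log2 fold change -0.53), had an unadjusted p under 0.05 and DESeq2 called 0, beside 0% of all genes by edgeR and 2.14% at an unadjusted p under 0.05. For the interaction of I200c with Sorafenib the counts were 0 and 0, again beside 0% of all genes and 3.24% at an unadjusted p under 0.05.

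In the 24 h experiment MC_DMSO stood low for several members. It had the lowest mean of the 10 groups for SPRY2 (2.55 ± 1.02 CPM, SD, n = 3), SPRY4 (2.24 ± 0.729), SPRED2 (9.01 ± 4.42) and ETV4 (45.3 ± 3.54). Against it, DUSP6, SPRED2, ETV4 and ETV5 had an unadjusted p under 0.05 both for M222 and for M512 in DMSO, all with higher values in the mimic, and none was called by edgeR. Both comparisons use the same 3 MC_DMSO libraries. For M222 the values were 0.65 for DUSP6, 1.01 for SPRED2, 0.90 for ETV4 and 0.66 for ETV5, with edgeR adjusted p from 0.356 to 0.891. For M512 they were 1.08, 1.02, 0.77 and 0.55, with adjusted p from 0.128 to 0.328, and DESeq2 called DUSP6 (adjusted p = 0.0408) where it called no member for M222. Of all genes, 0% were called for M222 and 0.634% for M512 (84 genes), with 5.56% and 10.5% at an unadjusted p under 0.05.

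In DMSO every mimic library was above every MC library for 3 of 10 members with M222 (DUSP6, ETV4 and ETV5), beside 5.19% of all genes, and for 4 with M512 (these and SPRED2), beside 11.1% of all genes. ETV5, an ETS factor, read 52.3, 78.2 and 75.4 CPM in MC_DMSO, 106, 104 and 117 in M222_DMSO and 106, 91.7 and 105 in M512_DMSO. ETV4 read 44.8, 42.0 and 49.1 CPM in MC_DMSO, 111, 68.6 and 74.8 in M222_DMSO and 92.5, 75.1 and 66.3 in M512_DMSO. With Sorafenib the order of ETV5 was the other way, with 89.2 to 99.7 CPM in MC, 80.5 to 87.2 in M222 and 66.1 to 78.2 in M512.

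In Sorafenib no member was called against MC by edgeR or DESeq2. For M222, 0 members had an unadjusted p under 0.05, beside 0% of all genes called and 6.04% at an unadjusted p under 0.05. For M512 there was 1, ETV5 (-0.46), a share near the 11.1% of all genes at an unadjusted p under 0.05, with 0.355% of all genes called. The interaction of the mimic with Sorafenib called no member by either tool, beside 0% of all genes for M222 and 0.00755% for M512 (1 gene). At an unadjusted p under 0.05 the shares of all genes were 1.96% for M222 and 5.04% for M512. At an unadjusted p under 0.05 it gave ETV4 (-0.74) and ETV5 (-0.87, SE 0.260) for M222, and DUSP6 (-1.30, SE 0.430) and ETV5 (-1.01, SE 0.260) for M512, where the adjusted p of ETV5 was 0.545.

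Other genes of the pathway were taken from 5 lists, to set the members beside them. Over all genes tested, 2.89% were called at 6 h (1.73% lower) and 25.8% at 24 h (13.4% higher). Of 18 other genes reported as ERK output, 13 were tested at 6 h, of which 3 fell and 0 rose, with a median log2 fold change of -0.48. They were IER3, a stress- and growth-factor-induced gene (678 ± 193 to 326 ± 78.1 CPM, SD, n = 6, log2 fold change -1.08, edgeR adjusted p = 0.000364), EGR1, an immediate-early transcription factor (-2.22, adjusted p = 0.000920), and FOSL1, an AP-1 subunit (-1.24, adjusted p = 0.0334). At 24 h 12 were tested, of which 9 rose and 1 fell, with a median of 1.20. MAFF, a small basic leucine zipper factor, rose by 2.22 on the log2 scale (8.50 ± 2.75 to 39.2 ± 10.8 CPM, SD, n = 9), HBEGF, a ligand of the EGF receptor, by 2.50, TNFRSF12A, the TWEAK receptor, by 1.14 and IER3 by 0.97, while CCND1, cyclin D1, fell by 0.51 on the log2 scale. IER3 and FOSL1 (1.25 at 24 h, edgeR adjusted p = 0.0253) thus fell at 6 h and rose at 24 h, as PHLDA1 did, while EGR1 was not called at 24 h (-0.95, adjusted p = 0.153).

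Of 7 other MAP kinase phosphatases, 6 were tested at both times, beside 2.89% of all genes called at 6 h and 25.8% at 24 h. At 6 h DUSP16, a phosphatase of JNK and p38, fell (-0.57, edgeR adjusted p = 0.0185) and none rose. At 24 h 4 rose and 1 fell: DUSP1 (2.87, adjusted p = 4.59e-08) and DUSP8 (2.58, adjusted p = 3.17e-08) rose from 5.20 ± 3.06 and 7.54 ± 3.70 CPM to 36.7 ± 12.2 and 41.7 ± 16.7 (SD, n = 9), DUSP10 by 2.62 from under 1 CPM and DUSP7 by 0.99, while DUSP9 fell by 0.38. DUSP1, DUSP8 and DUSP10 are known mainly for acting on JNK and p38, and DUSP7 and DUSP9 on ERK. The members DUSP4, DUSP5 and DUSP6 were not called at 24 h, but the difference between them and these genes was not tested.

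**Figure D4:**
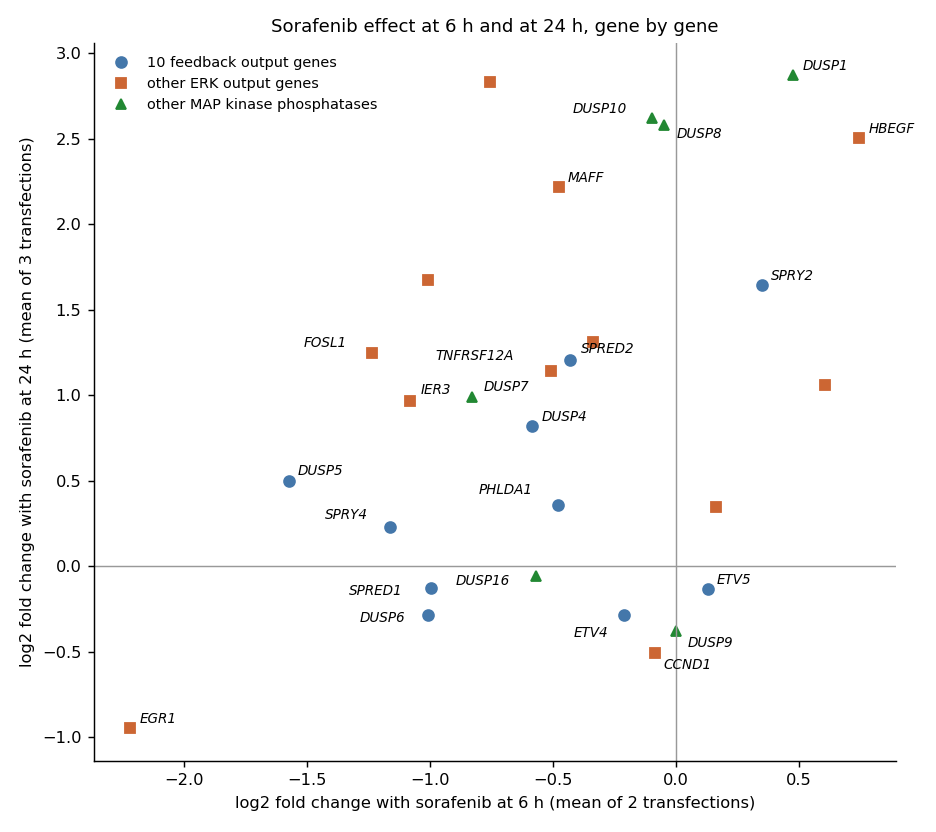
Log2 fold change with Sorafenib at 6 h (horizontal) against 24 h (vertical) for the 10 genes (blue circles), other ERK output genes (orange squares) and other MAP kinase phosphatases (green triangles) tested at both times. IER3, FOSL1 and PHLDA1 are among the genes left of 0 and above 0, EGR1 and DUSP6 among those left of 0 and below 0, and DUSP1, DUSP8 and MAFF among those near the top.

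Of 12 other inhibitors of receptor, RAS or ERK signalling 9 were tested, and none was called at 6 h by edgeR, with values of -0.71 to 0.45. Of these 9, 2 had an unadjusted p under 0.05, beside 15.4% of all genes, and 1 (ERRFI1) was called by DESeq2. At 24 h ERRFI1, a feedback inhibitor of the EGF receptor, rose (1.31, edgeR adjusted p = 1.05e-06) and NF1, a RAS GTPase-activating protein, fell (-0.50, adjusted p = 0.0248). That share is near the 25.8% of all genes called at 24 h and is no result about the list. Of 9 other ETS factors and repressors of their targets, 8 were tested at 6 h with none called by edgeR or DESeq2 (-1.01 to 0.00). Here too 2 had an unadjusted p under 0.05, beside 15.4% of all genes. At 24 h 7 were tested, of which ETS2 rose (0.54, edgeR adjusted p = 0.000597). The share called at 24 h was no larger than that of all genes here either. Of 25 genes of the cascade itself, SOS1, a RAS exchange factor (-1.56, adjusted p = 5.58e-07), and ERBB3, a receptor (-0.46, adjusted p = 0.0168), fell at 6 h, beside 2.89% of all genes called. At 24 h 4 rose and 3 fell, a share near the 25.8% of all genes called, with ERBB3 (-1.09), RPS6KA3, a kinase downstream of ERK (-0.93), SOS1 (-0.86) and BRAF (0.89) among those with the smallest p.

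Across the 30 libraries the members did not move as 1 block. With log2 levels taken as deviations from the mean of each transfection, which leaves the Sorafenib effect in, 29 of 45 pairs of members correlated above 0, with a median Pearson r of 0.12. The highest were DUSP5 with PHLDA1 (0.60), DUSP6 with SPRED1 (0.60) and DUSP4 with SPRED2 (0.60), and the lowest were DUSP6 with SPRY2 (-0.42) and DUSP4 with ETV4 (-0.41). The 5 genes outside the list whose levels followed the mean of the members most closely were MCL1, an anti-apoptotic BCL2-family gene (r = 0.80), SOCS7 (0.79), EIF1AD (0.77), TNFRSF10B, a TRAIL receptor (0.76), and MCMBP (0.75). All these values share the treatment and the scaling of the 30 libraries and are given as a description.

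DUSP4 (chr8:29333064-29350684, minus strand), ETV4 (chr17:43527844-43579620, minus strand) and ETV5 (chr3:186046314-186110318, minus strand) were, with SPRY4 and DUSP5, the members that edgeR, with TMM, the filter and all libraries, called in no comparison of Sorafenib with DMSO. ETV4 and ETV5 had 171 to 1045 and 201 to 993 counts per library. DUSP4 had 0 to 36 counts, and its intervals at 6 h and at 24 h both held a 2-fold rise.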

How the data were processed

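Per the labels and the study's methods, RNA of HepG2 cultures was made into QuantSeq 3′ FWD libraries from 350 ng, with 15 to 19 PCR cycles and 65 sequencing cycles. The authors aligned the reads with STAR to GRCh38 and deposited raw read counts per Ensembl gene from HTSeq-count. Versions, annotation release and strand handling are not given in the sources used here. A deposited normalised table, scaled within each transfection, was not used. The 92 lines that named no gene held 3 counts and were left out, and 56104 of 60107 identifiers matched a symbol.

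Members and lists were chosen with earlier results of these data known. All 10 members are named, and from each list at most 5 called genes per averaged contrast, smallest p first. Beyond this, the other ERK output genes called at 6 h were followed to 24 h. An item that this rule picked is not reported here. Tests across all genes used version 4.0.16 of edgeR (quasi-likelihood F tests, two-sided, R 4.3.3), TMM factors, filterByExpr and 1 coefficient per group. Each time had a fit of its own, with 12 libraries at 6 h and 18 at 24 h, and contrasts between times used all 30, with Benjamini-Hochberg adjustment over all genes tested. The SE is the log2 fold change over the root of F. Levels are CPM with TMM factors over 30 libraries. The fits were tested on simulated data. DESeq2 1.42.0, other scalings, no filter, a replicate block and leaving out each library were the alternatives. Replicates of a group differed by more than counting error, with a chi-square per degree of freedom of 4.54 to 66.2.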

Additional observations from a re-analysis of the deposited data

Results flagged for a closer look

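The effect of Sorafenib differed between 24 h and 6 h by the test of the difference itself for SPRED2, by 1.64 on the log2 scale (edgeR adjusted p = 0.00361), with a mean effect of -0.43 at 6 h and 1.21 at 24 h. It differed likewise for PHLDA1, by 0.84 (edgeR adjusted p = 0.000757), with -0.48 at 6 h and 0.36 at 24 h. Neither was called between the transfection controls alone. The DMSO levels that enter these differences were also lower at 24 h, with a log2 fold change of -0.68 for SPRED2 (not called) and -0.65 for PHLDA1. Their part in the differences was not tested. The 6 h cells carried inhibitors and the 24 h cells mimics, so time and oligonucleotide class cannot be told apart. With 3 replicates a group, single libraries were not screened as outliers.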

How the results depend on the processing

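With any 1 library left out, the averaged Sorafenib effect at 6 h gave 2 to 4 members called and that at 24 h 3. DESeq2 called 5 members at 6 h (beside 481 of all 14837 genes), 3 in I200c (487 of 14837) and 3 in M512 (1713 of 14284). It also called 1 (DUSP6) in M512 against MC in DMSO (230 of 10215) and 4 for the Sorafenib effect at 24 h against 6 h (1619 of 13061). Total counts in place of TMM gave 2 in I200c (beside 296 of all 12738 genes), 3 in M512 (1543 of 13244) and 1 for DMSO at 24 h against 6 h (648 of 13800). No filter on low counts gave 2 in I200c (519 of 22799), 1 in M222 (861 of 23336), 3 in M512 (1427 of 23336) and 1 in M512 against MC in DMSO (292 of 23336). The transfection controls alone gave 0 for both comparisons between times, beside 27 of all 12500 genes for the Sorafenib effect and 66 for DMSO. Leaving out 1 library gave 1 to 4 members in I200c, 0 to 1 in MC, 0 to 1 in M222, 0 to 2 in M512, 2 to 4 for the Sorafenib effect and 1 to 2 for DMSO at 24 h against 6 h. DUSP4 at 6 h ranged from -1.08 to 0.38 (above 0 without I200c_DMSO replicate 3) and SPRED1 at 24 h from -0.208 to 0.0121 (above 0 without M222_DMSO replicate 1). The cause was not tested.

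Replicate numbers were shared by the groups and are not stated to mark a shared batch. Deviations of same-numbered libraries correlated above 0.1 in 2 of 18 pairs at 6 h and 9 of 45 at 24 h, so that the numbers were not taken as pairs. Of the libraries, 6 of 12 at 6 h and 15 of 18 at 24 h correlated best with their own number, a hint of shared variation at 24 h that comes from the data and not from the design. The replicate block moved all calls from 3417 to 3653 for the 24 h average and from 344 to 470 in MC. It gave 2 members in I200c (PHLDA1 added, beside 310 of all 12738 genes) and 2 in M512 (SPRY2 added, 1520 of 13244). For the Sorafenib effect at 24 h against 6 h it gave 3 in place of 2 (SPRED1 added, 1409 of 13800), and elsewhere the count without the block.

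Total counts moved the share of higher genes among those called from 69.5% to 50.1% in MC, 64.3% to 47.9% in M222, 53.6% to 29.9% in M512, 41.7% to 27.4% in M512 against MC in DMSO and 56.8% to 37.97% for the Sorafenib effect at 24 h against 6 h. The lowest median counts per library among the members were 6 to 26, for DUSP4, DUSP5, SPRY2 and SPRY4.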
